A study of Mus musculus with 16 samples.

Results

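The 7SK RNA and the proteins it works with were followed through 8 genes: Rn7sk, which encodes the RNA, the 7SK-binding proteins Larp7, Mepce, Hexim1 and Hexim2, and the P-TEFb subunits Cdk9, Ccnt1 and Ccnt2. They were taken by gene symbol from a count table of 46320 genes, and all 8 were found in it. RNA had been sequenced from cultured mouse motoneurons whose axons grew into a compartment of their own, so that RNA of the somatodendritic and the axonal side could be collected apart. For values measured here, 'axons' stands for the libraries of the axonal compartment and 'motoneurons' for the cultures, whichever cells the RNA came from. The genotypes were +/+ and Hnrnpr-/-, and each of the 4 groups of genotype and compartment held 4 libraries, 16 in all. The Hnrnpr-/- mice carry a deletion made with CRISPR/Cas9 in every cell of the animal, not only in motoneurons. Cells of both genotypes came from the lumbar spinal cord at embryonic day 13, were enriched by panning with an antibody to p75NTR, and grew with 5 ng/ml CNTF in both compartments and 20 ng/ml BDNF in the axonal compartment alone, so that BDNF and compartment cannot be told apart. The study describes the 4 replicates of a group as biological, and p values measure the spread between these libraries.

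7SK is a short nuclear RNA made by RNA polymerase III. Mepce caps its 5′ end, Larp7 holds its 3′ end, and a dimer of Hexim1 or Hexim2 bound to the RNA keeps the kinase P-TEFb inactive. P-TEFb consists of Cdk9 with cyclin T1 (Ccnt1) or cyclin T2 (Ccnt2), and once released from 7SK it phosphorylates RNA polymerase II and the pausing factors, which lets paused polymerase elongate. HnRNP R is among the hnRNP proteins that bind 7SK after Hexim and P-TEFb have left it, and 7SK is a known partner of hnRNP R in motoneurons, where it has also been seen in axons.

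Rn7sk lies on chromosome 9 of GRCm39, on the minus strand (chr9:78082584-78082915), as a single exon of 332 bases. Its 5′ part is shown because Hexim proteins bind there, in a stem that carries the letters GATC, which read the same on both strands and stand in capitals. Its last bases are shown because Larp7 binds the run of T (U in the RNA) in capitals, and because the end has no poly(A) tail. Both were read from the reference genome, 5′ to 3′ on the strand of the RNA.
7SK bases 1 to 120 (chr9:78082796-78082915): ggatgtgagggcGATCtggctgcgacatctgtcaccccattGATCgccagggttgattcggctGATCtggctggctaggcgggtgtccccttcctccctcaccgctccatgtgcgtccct
7SK bases 273 to 332 (chr9:78082584-78082643): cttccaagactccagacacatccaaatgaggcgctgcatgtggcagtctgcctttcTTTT
GATC occurred 3 times in 7SK, from bases 13, 42 and 64. Among 32851 promoter windows of 300 bases from RefSeq (GRCm38.p6), 48.0% held GATC at least once and 3.35% held it at least 3 times. The longest run of A in 7SK was 3 bases. The libraries were made from polyA RNA with a primer that pairs with poly(A), so the level of Rn7sk measured here is the level that this method caught and not that of 7SK in the cell.

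Sequence copies bear on how reads were shared out, because the authors divided a read with several alignments among its places. At an identity of 90% or more over at least 90 bases, 249 of the 332 bases of Rn7sk were found at 10 other loci, and at 98% or more 242 bases were found at 2 loci. Larp7 had 22 such loci at 90% and none at 98%. At 90% Cdk9 had 5853 such loci and Ccnt1 had 15329. At 98% each of them had 1 other locus, with 893 of 5359 exon bases of Cdk9 and 157 of 9693 of Ccnt1. Hexim2 had no copy at either limit. The deposited count was not a whole number in 14 of 16 libraries for Larp7, in 13 each for Rn7sk and Cdk9, in 10 for Ccnt1, in 5 each for Mepce and Hexim1, and in 1 each for Hexim2 and Ccnt2.

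Total counts per library ranged from 22024923 to 34864151. Hnrnpr itself was measured first, as a check of the labels. It stood at 178 to 240 CPM (CPM are counts scaled to a common library size with TMM factors) in +/+ somatodendritic and 120 to 422 CPM in +/+ axonal libraries, against 0.544 to 1.16 and 0.596 to 1.10 CPM in the Hnrnpr-/- libraries of these compartments. The markers of the labelled cell type were low. The 7 motoneuron markers summed to 13.04 to 29.9 CPM in somatodendritic and 2.85 to 16.4 CPM in axonal libraries, 2 of the 5 tested passed as lower in axons in each genotype (27.4% of all genes in +/+ and 26.8% in Hnrnpr-/- motoneurons), Mnx1 was at 0 in 15 of 16 libraries, and Chat did not exceed 0.248 CPM in axonal libraries. The 6 astrocyte and radial glia markers summed to 902 to 2006 CPM in somatodendritic and 1900 to 4698 CPM in axonal libraries, and 4 of the 6 passed as higher in axons in +/+ motoneurons, where 30.1% of all genes did, and 2 of the 6 in Hnrnpr-/- motoneurons, where 27.5% did. Markers of oligodendroglia and Schwann cells summed to 156 to 906 and 190 to 1510 CPM, those of fibroblasts and meninges to 136 to 1359 and 165 to 2015 CPM, and those of microglia to 7.20 to 89.1 and 0.610 to 227 CPM in the somatodendritic and axonal libraries. The part of these marker levels in the compartment differences was not tested. Fewer cells of a type and less RNA per cell cannot be told apart in these bulk samples.

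Rn7sk was low in 14 libraries, with 3 to 24 rounded counts each, and high in 2. It reached 0.543, 0.315, 0.124 and 0.422 CPM in +/+ somatodendritic replicates 1 to 4 and 0.329, 0.303, 0.502 and 0.343 CPM in the Hnrnpr-/- somatodendritic replicates. The axonal replicates gave 0.442, 9.27, 0.357 and 0.734 CPM in +/+ and 0.116, 0.590, 0.510 and 5.56 CPM in Hnrnpr-/- motoneurons. Axonal and somatodendritic libraries overlapped in both genotypes, and +/+ axonal replicate 2 and Hnrnpr-/- axonal replicate 4 stood apart from all others. A library without a read allows up to 3 counts, which corresponded to 0.0810 to 0.141 CPM, and this floor covers counting error only. Of the 391 rounded counts of Rn7sk in +/+ axonal libraries, 343 came from replicate 2, and of the 208 in Hnrnpr-/- axonal libraries, 168 came from replicate 4.

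**Figure D1:**
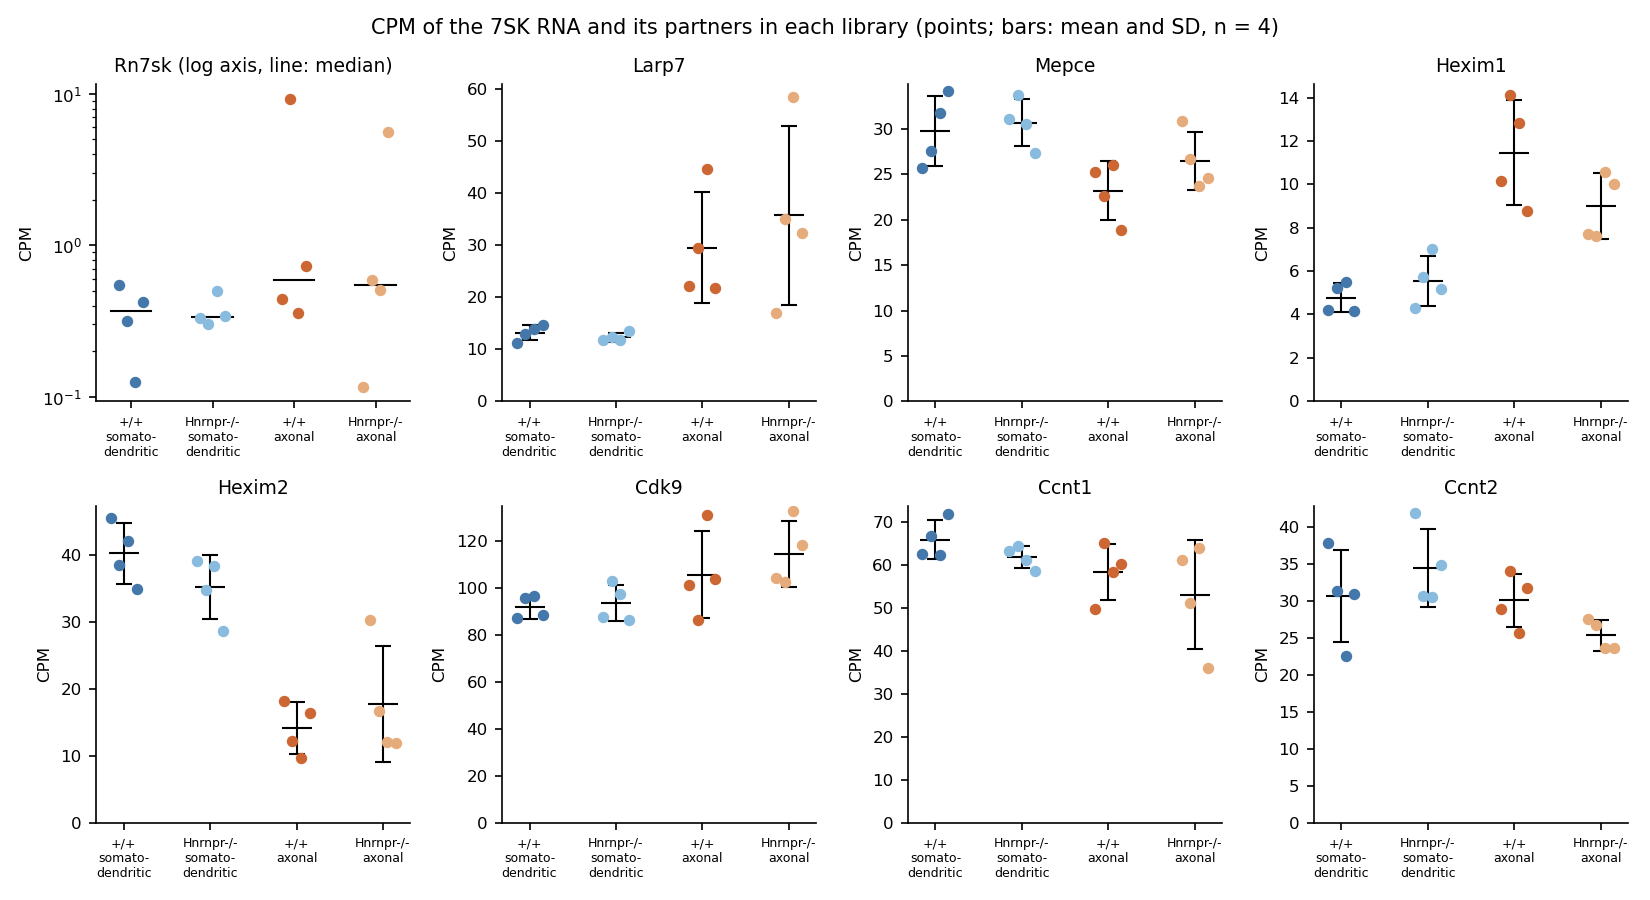
CPM of the 8 genes in each of 16 libraries, with 1 panel per gene and 4 points per group, in the order of the replicates. Bars give the mean and SD (n = 4), and for Rn7sk, on a log axis, the line gives the median. Larp7 and Hexim1 lie higher and Hexim2 mostly lower in axonal than in somatodendritic libraries, and Rn7sk is above 5 CPM in 2 axonal libraries only.

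Of the 8 genes, 4 passed the test between compartments in +/+ motoneurons, with 3 higher and 1 lower in axons (edgeR quasi-likelihood test, Benjamini-Hochberg adjustment over 19964 genes). The share of all genes tested that passed was 57.5%, with 30.1% higher and 27.4% lower in axons, so the share of these 8 genes was no larger than that of genes in general. Hexim1 and Larp7 were higher and Hexim2 was lower, whereas Mepce, the kinase Cdk9 and its cyclins did not pass. Rn7sk was also called higher, but this call rested on a single library, as described further below. Groups did not overlap for 3 of the 8 genes, Larp7, Hexim1 and Hexim2, and for 52.4% of all genes. The median log2 fold change was 0.09 over the 8 genes and 0.07 over all genes.

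Larp7 (chr3:127330363-127346998, minus strand), the La-related protein on the 3′ end of 7SK, was measured at 11.3, 12.9, 13.9 and 14.7 CPM in +/+ somatodendritic and 22.1, 29.5, 44.7 and 21.8 CPM in +/+ axonal replicates. All 4 axonal libraries were above all 4 somatodendritic ones. The log2 fold change was 1.16 (SE 0.30, 95% interval 0.51 to 1.81), or 2.24-fold, with an adjusted p of 0.00478. In Hnrnpr-/- motoneurons it was at 11.7, 12.3, 11.7 and 13.4 CPM in somatodendritic and 17.0, 34.98, 58.6 and 32.4 CPM in axonal replicates, again without overlap, which gave a log2 fold change of 1.54 (SE 0.31, adjusted p = 0.000947). The axonal libraries spread over a wider range than the somatodendritic ones in both genotypes, with an SD of 10.7 against 1.47 CPM in +/+ and of 17.2 against 0.809 CPM in Hnrnpr-/- libraries. Gm51018, a noncoding gene on the opposite strand inside Larp7, had 9.4 to 12.3% of the counts of Larp7, and the library kit does not keep the strand, so reads of the pair cannot be told apart.

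Mepce (chr5:137780168-137784963, minus strand), which caps the 5′ end of 7SK, was at 25.7 to 34.1 CPM in +/+ somatodendritic and 18.9 to 26.03 CPM in +/+ axonal libraries, and these ranges overlapped. Its log2 fold change was -0.36 (SE 0.15) with an adjusted p of 0.0505, just outside the threshold of 0.05. Mepce passed in DESeq2 (-0.35, adjusted p = 0.0231), without +/+ axonal replicate 1 (-0.42, adjusted p = 0.047) and without Hnrnpr-/- axonal replicate 1 (-0.37, adjusted p = 0.0406). In Hnrnpr-/- motoneurons it was -0.21 (SE 0.15, adjusted p = 0.244). The counts of Larp7 amounted to 0.430 to 0.467 of those of Mepce in +/+ somatodendritic libraries and to 0.876 to 1.72 in +/+ axonal libraries. In Hnrnpr-/- libraries this ratio was 0.365 to 0.490 and 0.550 to 2.47.

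Hexim1 and Hexim2, the paralogous inhibitors of P-TEFb, lie side by side on the plus strand of chromosome 11 (chr11:103007151-103010551 and chr11:103014086-103030734) and changed in opposite directions. Hexim1 stood at 4.22, 5.22, 5.50 and 4.17 CPM in +/+ somatodendritic and 10.1, 14.1, 12.8 and 8.77 CPM in +/+ axonal replicates, without overlap. Its log2 fold change was 1.26 (SE 0.22, 95% interval 0.79 to 1.73), or 2.40-fold, with an adjusted p of 0.000346. Hexim2 stood at 45.4, 38.5, 42.0 and 34.9 CPM in somatodendritic and 18.2, 12.1, 9.70 and 16.4 CPM in axonal replicates of the same genotype. All axonal values of Hexim2 were below all somatodendritic ones, and the log2 fold change was -1.51 (SE 0.28, 95% interval -2.11 to -0.91, adjusted p = 0.000512). For Hexim1, Hexim2 and Larp7 the exact two-sided permutation test of log2 CPM gave p = 0.0286, which is the smallest that 4 against 4 libraries allow.

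The same directions were measured in Hnrnpr-/- motoneurons, in other libraries. Hexim1 was at 4.28, 5.71, 7.03 and 5.19 CPM in somatodendritic and 7.72, 7.63, 10.6 and 10.0 CPM in axonal replicates, with a log2 fold change of 0.69 (SE 0.22, adjusted p = 0.0151). Hexim2 was at 39.0, 34.7, 38.3 and 28.7 CPM in somatodendritic and 30.2, 16.7, 12.1 and 11.9 CPM in axonal replicates, with a log2 fold change of -0.99 (SE 0.28, adjusted p = 0.00782). Axonal replicate 1 of Hexim2 reached the range of the somatodendritic libraries, and the exact two-sided permutation p was 0.0571. That test took no account of replicate numbers, and for each number the axonal value was below the somatodendritic one. Without axonal replicate 1 the log2 fold change of Hexim2 was -1.39 (adjusted p = 0.000235), and over all alternatives it ran from -1.39 to -0.81, with adjusted p of up to 0.0338. The count of Hexim1 divided by that of Hexim2 was 0.0929 to 0.136 in +/+ somatodendritic, 0.110 to 0.183 in Hnrnpr-/- somatodendritic, 0.533 to 1.32 in +/+ axonal and 0.256 to 0.876 in Hnrnpr-/- axonal libraries. Every axonal library therefore had a higher ratio than every somatodendritic library. These ratios are of counts and are not scaled to exon length. The Hexim2 counted here has 11669 exon bases against 3524 in GENCODE and starts 8654 bases earlier. How much of its count lies outside the GENCODE gene was not tested. The sum of both genes was 39.1 to 49.7 CPM in +/+ somatodendritic and 22.5 to 28.3 CPM in +/+ axonal libraries, and 33.9 to 45.4 and 21.9 to 37.9 CPM in those of Hnrnpr-/- motoneurons.

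**Figure D2:**
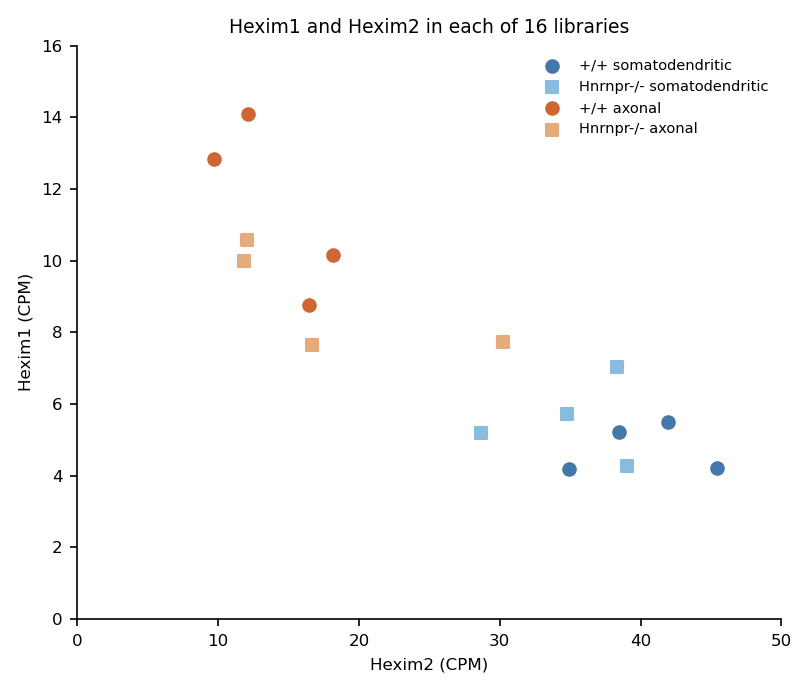
Hexim1 (vertical axis, CPM) against Hexim2 (horizontal axis, CPM) in each of 16 libraries, with colour and shape for the group. Somatodendritic libraries lie at 28.7 to 45.4 CPM of Hexim2 and below 7.1 CPM of Hexim1, axonal libraries lie at the upper left, and Hnrnpr-/- axonal replicate 1 lies between them at 30.2 CPM of Hexim2.

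Cdk9 (chr2:32595794-32608098, minus strand), the kinase of P-TEFb, was at 86.9, 95.5, 96.6 and 88.3 CPM in +/+ somatodendritic and 101, 86.3, 131 and 104 CPM in +/+ axonal replicates. The groups overlapped, and the log2 fold change of 0.20 (SE 0.14, 95% interval -0.10 to 0.50) did not pass (adjusted p = 0.234). In Hnrnpr-/- motoneurons it was 0.29 (SE 0.14, adjusted p = 0.0954). With library totals in place of TMM factors, Cdk9 passed in both genotypes (log2 fold change 0.35, adjusted p = 0.0404 in +/+, and 0.41, adjusted p = 0.0215 in Hnrnpr-/-), a scaling that also raised the median of all genes by 0.15 in +/+ and 0.12 in Hnrnpr-/- motoneurons.

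Ccnt1 (chr15:98436570-98468340, minus strand) and Ccnt2 (chr1:127701901-127732574, plus strand) encode the cyclin T partners of Cdk9. Ccnt1 had 62.4 to 72.0 CPM in +/+ somatodendritic and 49.8 to 65.2 CPM in +/+ axonal libraries, and its log2 fold changes of -0.17 (SE 0.16) in +/+ and -0.22 (SE 0.16) in Hnrnpr-/- motoneurons did not pass (adjusted p = 0.366 and 0.263). Ccnt2 had 22.5 to 37.8 and 25.6 to 34.0 CPM in the compartments of +/+ motoneurons, with a log2 fold change of -0.03 (SE 0.17, adjusted p = 0.897) that turned to 0.10 with upper-quartile factors and 0.12 with library totals. In Hnrnpr-/- motoneurons Ccnt2 was at 41.8, 30.7, 30.5 and 34.8 CPM in somatodendritic and 27.5, 26.7, 23.6 and 23.5 CPM in axonal replicates, without overlap. It was lower in the axonal libraries, by a log2 fold change of -0.44 (SE 0.17, adjusted p = 0.0365). This call was lost when any of 10 of the 16 libraries was left out, among them somatodendritic replicate 1 of the same genotype, which carried the highest value (-0.29, adjusted p = 0.191). The antisense gene 9330020H09Rik had 3.03 to 3.77% of the counts of Ccnt1, and reads of this pair cannot be told apart either. The ratio of Ccnt1 to Ccnt2 counts lay between 1.51 and 2.77 in all 16 libraries.

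Rn7sk was called higher in +/+ axons, by 2.92 on the log2 scale (SE 1.17, 95% interval 0.43 to 5.42, adjusted p = 0.0441), and this value rested on a single library. Without +/+ axonal replicate 2 it was 0.52 (adjusted p = 0.651). With the replicate number as a block the log2 fold change was 1.62 (adjusted p = 0.209), and the exact two-sided permutation p of log2 CPM was 0.171. The log2 fold change of Rn7sk in Hnrnpr-/- motoneurons was 2.18 (SE 1.15, adjusted p = 0.122). Without Hnrnpr-/- axonal replicate 4 it was 0.13 (adjusted p = 0.93), and without +/+ axonal replicate 2, which enters only through the shared spread, it was 2.17 and passed (adjusted p = 0.0477).

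Between the compartments of Hnrnpr-/- motoneurons 4 of the 8 genes passed, Larp7 and Hexim1 higher and Hexim2 and Ccnt2 lower in axons, against 54.2% of all genes, with 27.5% higher and 26.8% lower. The groups did not overlap for 3 of the 8 genes, Larp7, Hexim1 and Ccnt2, and for 51.4% of all genes. The medians were 0.04 over the 8 genes and -0.0028 over all genes.

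**Figure D3:**
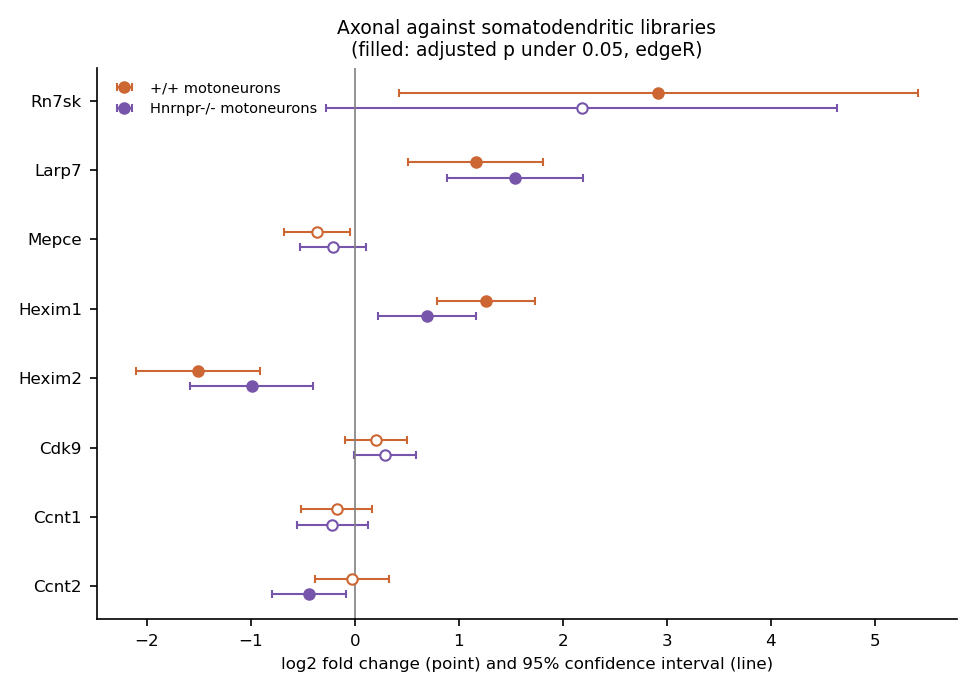
Log2 fold change of each gene in axonal against somatodendritic libraries (points) with its 95% confidence interval (lines), in +/+ and Hnrnpr-/- motoneurons, with filled points for an adjusted p under 0.05. Larp7 and Hexim1 lie to the right of 0 and Hexim2 to the left in both genotypes, and the interval of Rn7sk is the widest.

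Whether the loss of hnRNP R changed these genes was asked in each compartment. In the somatodendritic libraries 0 of the 7 genes tested passed, as Rn7sk had too few counts for the filter, and 0.00557% of 17961 genes passed. In the axonal libraries 0 of 8 passed, and 0.00528% of 18957 genes passed. The gene that passed was Hnrnpr in both compartments. At an unadjusted p under 0.05, 471 genes differed in somatodendritic and 137 in axonal libraries, and none of the 8 was among them. Groups did not overlap for 1.47% and 0.591% of the genes tested, and for 0 of the 8 genes in both compartments.

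The 95% intervals give the precision of these comparisons. In somatodendritic libraries the log2 fold changes of Hnrnpr-/- against +/+ ran from -0.18 for Hexim2 (95% interval -0.47 to 0.11) to 0.22 for Hexim1 (-0.21 to 0.66), with Larp7 at -0.09 (-0.39 to 0.21), Mepce at 0.05 (-0.21 to 0.32), Cdk9 at 0.04 (-0.18 to 0.26), Ccnt1 at -0.08 (-0.29 to 0.13) and Ccnt2 at 0.18 (-0.20 to 0.56). Axonal intervals were wider. Hexim1 was at -0.35 (-0.97 to 0.26), Hexim2 at 0.32 (-0.49 to 1.12), Larp7 at 0.27 (-0.63 to 1.17), Ccnt2 at -0.25 (-0.65 to 0.15) and Rn7sk at -0.67 (-3.76 to 2.43). The value of Rn7sk was 1.76 without +/+ axonal replicate 2 and -2.72 without Hnrnpr-/- axonal replicate 4, so that its direction followed from which of these libraries was kept. In somatodendritic libraries, where both groups held Rn7sk at or below 0.543 CPM, the exact two-sided permutation p was 0.771.

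In the test of whether the genotype effect differed between compartments, 0 of the 8 genes and 0% of the 19964 genes passed, with 265 genes at an unadjusted p under 0.05 (edgeR). Hexim1 had a difference of -0.57 on the log2 scale (SE 0.31, 95% interval -1.23 to 0.09) and Ccnt2 of -0.41 (SE 0.24, 95% interval -0.92 to 0.09), both with an adjusted p of 1.

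**Figure D4:**
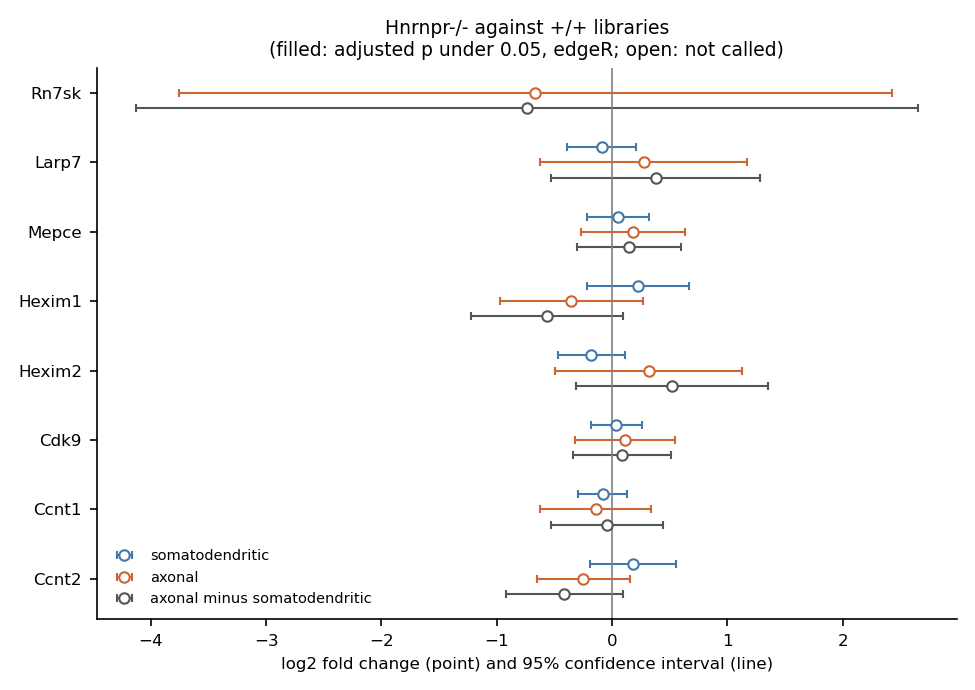
Log2 fold change of each gene in Hnrnpr-/- against +/+ libraries (points) with its 95% confidence interval (lines), in somatodendritic libraries, in axonal libraries, and as the difference between both. Open points mark values that did not pass, which holds for all of them, and every interval includes 0. Rn7sk has no somatodendritic point because it was not tested there.

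Levels of different genes were set side by side per kilobase of exon. With the exon lengths of the table, the order in +/+ somatodendritic libraries ran from Cdk9 at 10.3 ± 0.552 CPM per kb (SD, n = 4) through Mepce at 9.10 ± 1.18, Ccnt2 at 8.71 ± 1.78, Ccnt1 at 6.73 ± 0.459, Larp7 at 6.22 ± 0.693 and Hexim2 at 3.44 ± 0.389 to Hexim1 at 1.41 ± 0.200 and Rn7sk at 1.06 ± 0.535. Neighbouring ranges overlapped except those of Larp7 and Hexim2 and those of Hexim2 and Hexim1. With the same lengths Larp7 was first at 13.9 ± 5.05 and Hexim2 last at 1.21 ± 0.333 CPM per kb in +/+ axonal libraries, and these genes also stood first and last in Hnrnpr-/- axonal libraries. This axonal order rests on the annotation. The exon lengths of GENCODE differ for Larp7 (3904 against 2121 bases), Cdk9 (5359 against 8915), Hexim2 (3524 against 11669) and Ccnt2 (15722 against 3514). With them Cdk9 was first and Ccnt2 last in +/+ axonal libraries, at 19.7 and 1.91 CPM per kb, with Larp7 at 7.57 and Hexim2 at 4.0. The same genes were first and last in Hnrnpr-/- axonal libraries, at 21.3 and 1.61 CPM per kb. In the somatodendritic libraries of both genotypes Cdk9 was first and Rn7sk last with either set of lengths, but in +/+ libraries Hexim2 moved to 11.4 and Ccnt2 to 1.95 CPM per kb. The table's Hexim2 also starts 8654 bases before that of GENCODE, in the stretch between Hexim1 and Hexim2.

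The genes whose log2 CPM ran most like that of Rn7sk over the 16 libraries were Xlr (Pearson r = 0.865), Gm21145 (0.822), Gm11957 (0.816), Dbndd2 (0.813) and Gm14328 (0.802), and the most opposite were Pdxdc1 (-0.881), Ppm1l (-0.877) and Rita1 (-0.876), among 16472 genes with a mean of at least 1 CPM. Xlr was at 18.9 CPM in +/+ axonal replicate 2 and at 1.13 CPM in Hnrnpr-/- axonal replicate 4, against a median of 0.0651 CPM over the other 14 libraries. The points share their libraries and the 2 high values, and of the 100 genes most like Rn7sk over the 8 somatodendritic libraries 1 was among the 100 most alike over the 8 axonal libraries. Among its own partners the correlation over 16 libraries ran from -0.575 for Hexim2 and -0.539 for Mepce to 0.405 for Larp7 and 0.532 for Hexim1. Over the 8 axonal libraries, which hold both high values, these 4 genes had the same signs (Hexim2 -0.522, Mepce -0.432, Larp7 0.137, Hexim1 0.529). Over the 8 somatodendritic libraries Hexim2 (-0.0186) and Mepce (-0.328) kept their sign, and Larp7 (-0.483) and Hexim1 (-0.153) had the opposite one.

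Other RNAs that lack a poly(A) tail gave a measure of how such transcripts behave in these libraries. The 7SL rows Rn7s1 and Rn7s2, for the RNA of the signal recognition particle, held nearly the same values, and Rn7s1 was at 5.23 to 11.4 CPM in somatodendritic and 1.498 to 3.98 CPM in axonal libraries. It was lower in axons in +/+ (log2 fold change -2.12, SE 0.35, adjusted p = 0.000244) and Hnrnpr-/- motoneurons (-1.51, SE 0.35, adjusted p = 0.00225), and the groups of Rn7s1 did not overlap, whereas those of Rn7sk did. In +/+ axonal replicate 2, where Rn7sk was 9.27 CPM, Rn7s1 was 2.16 CPM, within the range of the other axonal libraries, and in Hnrnpr-/- axonal replicate 4 it was 3.61 CPM. Of the 13 such RNAs found in the table, 3 passed the filter. Rnu2-10, a U2 RNA, did so at 0.124 to 0.630 CPM in axonal libraries against 0 to 0.0905 CPM in somatodendritic ones, and Rmrp, Rny3, Rnu11 and Rnu1b1 stayed at or below 0.0306 CPM. Of 5 nuclear long noncoding RNAs 2 were higher and 2 lower in +/+ axons, against 30.1% and 27.4% of all genes, and 1 was higher and 2 lower in Hnrnpr-/- axons, against 27.5% and 26.8%. Malat1 among them was highest in +/+ axonal replicate 2, at 2122 CPM against 147 to 947 CPM in the other 15 libraries, and Hnrnpr was highest there too. That library also had the highest total count, 34864151, and the fewest genes detected, 22700 against 23843 to 26072 in the other 15. Hnrnpr-/- axonal replicate 4 held the highest sum of microglia markers, 227 CPM. The part of these differences in the level of Rn7sk was not tested.

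Several genes named in the lists that follow were chosen after their values were seen, whereas the counts cover each whole list. They are to be read against all genes tested, of which 57.5% passed in +/+ (30.1% higher, 27.4% lower, median log2 fold change 0.07) and 54.2% in Hnrnpr-/- motoneurons (27.5% higher, 26.8% lower, median -0.0028), and a count near these shares is no result about a list. The hnRNP proteins that take the place of Hexim and P-TEFb on 7SK were followed through 5 genes. In +/+ motoneurons 2 were higher and 1 was lower in axons, with a median of 0.47 over the list. Hnrnpa2b1 (log2 fold change 1.02, SE 0.31, adjusted p = 0.0124) and Hnrnpa1 (0.97, SE 0.31, adjusted p = 0.0155) were higher, and the helicase gene Dhx9 was lower (-2.44, SE 0.35, adjusted p = 9.66e-05), with 79.2 to 96.1 CPM in somatodendritic and 8.61 to 26.1 CPM in axonal libraries. Hnrnpa1 was also higher and Dhx9 lower in Hnrnpr-/- axons. Hnrnpr was at a log2 fold change of 0.06 (SE 0.34, adjusted p = 0.889) between the compartments of +/+ motoneurons. Between genotypes Hnrnpr alone of the 5 passed, in both compartments.

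Of 5 genes for factors that release P-TEFb from 7SK, 3 were higher in +/+ axons and 0 lower, Rbm7 (log2 fold change 0.95), Ddx21 (0.80) and Srsf2 (1.00), with adjusted p of 0.000643, 0.00227 and 0.0337, and in Hnrnpr-/- motoneurons Rbm7 and Ddx21 were higher. The medians of this list were 0.80 and 0.65. Of all genes, 30.1% were higher in +/+ and 27.5% in Hnrnpr-/- axons, and 57.5% and 54.2% passed in either direction. Whether a list of 5 genes departs from these shares was not tested. Ppm1g, a phosphatase gene, was at -0.27 (adjusted p = 0.207). Of 9 tested genes for P-TEFb recruitment and the super elongation complex, 3 were higher and 3 lower in +/+ and 3 higher and 2 lower in Hnrnpr-/- axons. The scaffold genes of the complex diverged, with Aff1 higher (2.12, SE 0.39, adjusted p = 0.000459) and Aff4 lower (-0.80, SE 0.18, adjusted p = 0.00191).

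A list of 8 genes covered the pausing factors NELF and DSIF, the elongation factor gene Supt6 and polymerase II. Of these, 2 were higher and 2 lower in +/+ axons, and 3 were higher and 2 lower in Hnrnpr-/- axons. These counts are near the 57.5% and 54.2% of all genes that passed. The medians were -0.018 and 0.11. Nelfe (log2 fold change 1.54, SE 0.21, adjusted p = 5.87e-05) and Supt4a (1.08, SE 0.17, adjusted p = 0.000152) were higher. Supt5, whose protein pairs with that of Supt4a in DSIF, was lower (-0.57, SE 0.14, adjusted p = 0.00398), as was Supt6 (-0.84, SE 0.19, adjusted p = 0.00168). Of 8 other transcriptional kinase and cyclin genes 2 were higher, the TFIIH genes Mnat1 (1.52, adjusted p = 0.000531) and Cdk7 (0.50, adjusted p = 0.0486), and the Mediator kinase gene Cdk8 was lower (-0.64, adjusted p = 0.00447). In Hnrnpr-/- axons 2 of these 8 genes were higher, Mnat1 and Cdk7, and 2 lower, Cdk8 and Cdk12 (-0.48, adjusted p = 0.0417), and the median of the list was 0.29 in +/+ and -0.21 in Hnrnpr-/- motoneurons. Of 6 La and La-related genes 2 were higher and 3 lower in +/+ axons, against 30.1% and 27.4% of all genes, with a median of -0.44. The La gene Ssb (0.96, adjusted p = 0.00603) and Larp1b (0.64, adjusted p = 0.0337) were higher like Larp7, whereas Larp1 (-0.59, adjusted p = 0.00849), Larp4b (-1.17, adjusted p = 0.000288) and Larp6 (-2.19, adjusted p = 0.00173) were lower. Of the 6 genes 0 were higher in Hnrnpr-/- axons, and 3 were lower, Larp1, Larp4b and Larp6. In none of these lists did a gene other than Hnrnpr pass between genotypes.

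**Figure D5:**
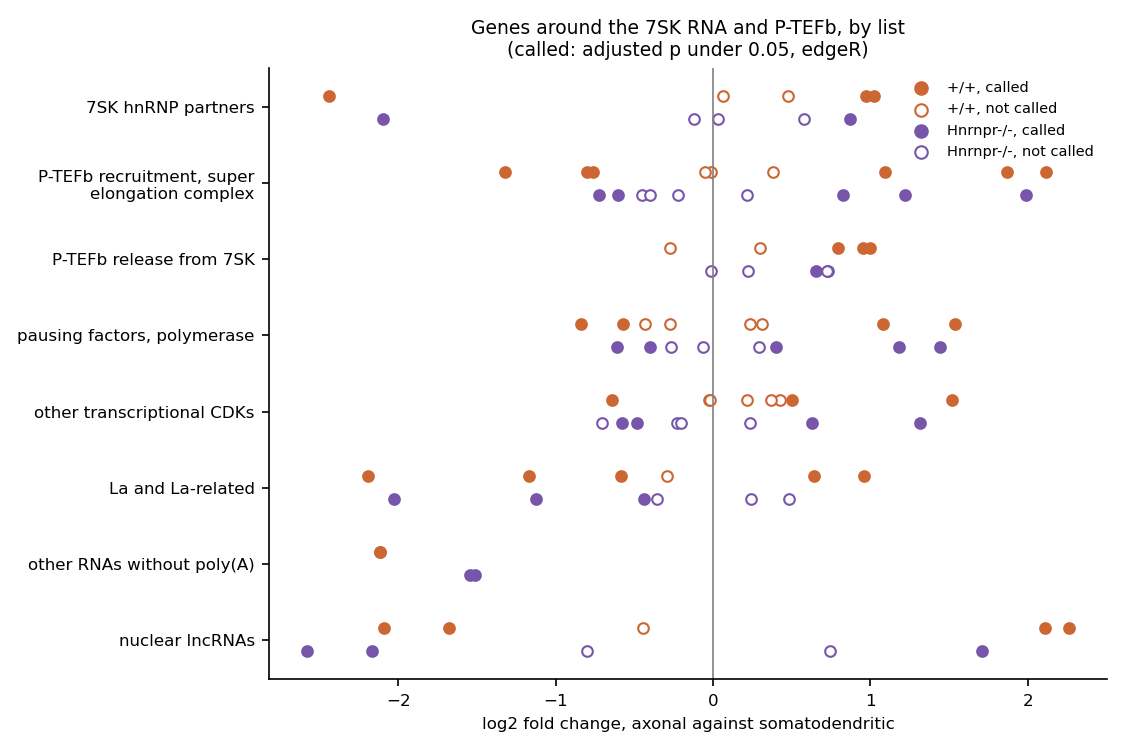
Log2 fold change in axonal against somatodendritic libraries (horizontal axis) for each tested gene of 8 lists (rows), in +/+ and Hnrnpr-/- motoneurons, with filled points for an adjusted p under 0.05. Called points lie on both sides of 0 in most rows, as do those of the 8 pausing factor and polymerase genes, which run from -0.84 to 1.54 in +/+ motoneurons. Rnu2-10 is left out because it was at or below the detection limit in somatodendritic libraries.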

How the data were processed

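RNA from 16 libraries was measured by RNA-seq (SMART-Seq v4, polyA RNA, single-end reads, with more PCR cycles for axonal samples). The authors trimmed reads with Cutadapt, aligned them with STAR 2.7.2b to RefSeq GRCm39 and counted exons with featureCounts 1.6.4 in the reverse-strand setting, which may lower counts because the kit does not keep the strand. The authors deposited these expected counts, which are fractional because reads with several alignments or genes were divided, without normalization. Counts were rounded here and analyzed in R 4.3.3 with edgeR 4.0.16 (filterByExpr with a minimum count of 10, TMM factors, quasi-likelihood test, two-sided, threshold 0.05 after Benjamini-Hochberg adjustment over all genes tested). Compartments and the interaction were compared in a fit of all 16 libraries, genotypes in fits of the 8 libraries of each compartment. CPM used TMM-scaled totals, and exact permutation tests used log2(CPM + 0.1). Intervals are based on the t distribution. In a check of pairing, libraries of the same number counted as paired where every correlation of their deviations from the group means was over 0.1. This held between the compartments of Hnrnpr-/- motoneurons (r 0.13 to 0.601). In the other pairings of groups r was positive for all numbers, but the lowest was 0.0104 to 0.0628. The pairing comes from the replicate numbers of the titles. The main fits used no replicate block in any comparison, so their p values and intervals treat all libraries as independent. A block entered only as an alternative. Alternatives were other scalings and filters, unrounded counts, DESeq2 1.42.0, limma 3.58.1, other sets of libraries, a replicate block and each library left out. Copies were searched with BLAST+ 2.17.0 in GRCm39 and exons of GENCODE vM39. The model was also run on simulated counts in which far fewer genes changed than between these compartments, and no result here rests on that run. The rule for named genes took the 8 members, and of the other lists genes that passed between genotypes, the 3 of highest mean level or those needed to place a member. Other list genes named in the text were chosen after their values were seen. Members and lists were chosen with earlier results of these data known. The result of 1 gene of the lists is not reported here.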

Additional observations from a re-analysis of the deposited data

Results flagged for a closer look

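Rn7sk in +/+ axonal replicate 2 was at 9.27 CPM, while the nearest other library of its group was at 0.734 CPM, a gap that makes up 0.958 of the range of the 4 libraries. Rn7sk in Hnrnpr-/- axonal replicate 4 was at 5.56 CPM, against 0.590 CPM for the nearest library of its group, a gap of 0.913 of the range. Both gaps are above the limit of 0.829 of Dixon's test for 4 values. Of 32 groups of a gene and condition tested this way, 2 exceeded the limit, and chance alone gives about 1 in 20.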

How the results depend on the processing

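Larp7 and Hexim1 kept their direction and their call between compartments in both genotypes in all 29 alternatives, and Hexim2 did so in +/+ motoneurons. In Hnrnpr-/- motoneurons Hexim2 lost its call in 1 of 29, the exact permutation test, which is unpaired, and Ccnt2 in 17 of 29. Rn7sk in +/+ motoneurons lost its call in 14 of 27, with adjusted p from 0.0189 to 0.651, and DESeq2 gave no adjusted p for it. Calls were gained for Mepce in 4 alternatives in +/+ motoneurons, and for Cdk9 in 1 alternative in +/+ and 4 in Hnrnpr-/- motoneurons, with upper-quartile factors (0.40), library totals (0.41), a filter of 10 counts per library (0.35) and without +/+ axonal replicate 3 (0.33), and for Rn7sk in 1 in Hnrnpr-/- motoneurons. Without both axonal libraries above 5 CPM of Rn7sk, a choice made after seeing the data, its log2 fold change was 0.53 (adjusted p = 0.437). The cause of the lost calls was not tested. Under the replicate block the call of Rn7sk in +/+ motoneurons was lost (1.62) and no other call of the 8 genes changed, and 11246 of all genes passed in +/+ motoneurons against 11477 without it. Each library correlated best with its own number in 7 of 8 cases between the compartments of +/+ and of Hnrnpr-/- motoneurons, but in 4 of 8 and 2 of 8 between genotypes in axonal and somatodendritic libraries. Directions turned only for values that were not called. Ccnt2 in +/+ motoneurons turned to 0.10 with upper-quartile factors, 0.12 with library totals and 0.031 with a filter of 10 counts per library, and ranged from -0.11 to 0.13 when each library was left out. Between genotypes, leaving out each library gave ranges of -0.014 to 0.12 for Mepce and -0.019 to 0.070 for Cdk9 in somatodendritic libraries, and in axonal libraries of -2.72 to 1.76 for Rn7sk, -0.072 to 0.58 for Larp7, -0.059 to 0.47 for Hexim2 and -0.25 to 0.0017 for Ccnt1. For the difference between compartments these ranges were -2.79 to 1.65 for Rn7sk and -0.15 to 0.11 for Ccnt1. Without both libraries high in Rn7sk, Cdk9 turned to -0.0034 and Ccnt1 to 0.052 between genotypes in axonal libraries, and to -0.015 and 0.16 for the difference. The common dispersion was 0.275 in axonal and 0.0499 in somatodendritic libraries, so that axonal genotype effects are less precise.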
